A study of Rattus norvegicus with 20 samples.

Results

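Primary cultures of neonatal rat heart exposed to diclofenac at reference concentration 1 for 6 h were compared with untreated cultures. The comparison used 5 of the 20 arrays of the series, picked by their sample titles: 3 treated and 2 untreated. The labels call the cells cardiomyocytes, taken from heart tissue and grown for a day in DMEM before treatment, and the RNA was amplified, labelled with the dye Cy3 and read on 1-colour Agilent rat arrays. The other 15 arrays, from diclofenac at 1/5 and 1/25 for 6 h and at all 3 concentrations for 24 h, entered the fit to share its estimate of the spread. The molar value of concentration 1, the time of the untreated cultures, the strain and any pooling of animals were not given in the sources used here. Treatment and time in culture therefore cannot be told apart. Whether replicates were separate cultures is not stated, so the p-values reflect only how far these samples varied, and that variation may be technical. The series text speaks of 3 replicates in a group, and 2 untreated arrays were analysed here.

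Diclofenac relieves pain and inflammation by blocking both cyclooxygenases, the products of Ptgs1 and Ptgs2. These enzymes turn arachidonic acid, which phospholipases release from membranes, into the common precursor of prostaglandins, prostacyclin and thromboxane. Terminal synthases make the single products, which act on G protein-coupled receptors of heart muscle cells, vessels and platelets.

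Each array held 43379 non-control spots for 41012 probes, and 35065 probes for 30504 genes passed the filter on dim probes. Levels below are log2 signals relative to the 75th percentile of their array, and a change is the treated minus the untreated mean level. The share of spots well above background was 82.5 and 84.7% on the untreated arrays and 84.5, 85.9 and 88.2% on the treated arrays. Pairs of the 5 arrays correlated across probes with Pearson r of 0.953 to 0.977. The median SE of a change was 0.55, with the spread estimated over all 20 arrays of the fit. The median SD was 0.22 between the untreated arrays and 0.20 between the treated arrays of this comparison. Each SE below therefore includes the spread of the other groups and is not that of the compared arrays alone. Both untreated and the first and second treated array shared a slide, and the third treated array lay on another.

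LOC291521 and Rhag were the 2 genes of 30504 that passed the adjusted threshold of 0.05 (0.00656%, limma with Benjamini-Hochberg adjustment), and both rose. Their probes passed the filter on dim probes only through the treated group, so both had to read well above background there. LOC291521 is described in the array files as similar to spindlin-like protein 2, of a family named after spindlin, a reader of methyl marks on histones. Its level was -7.92 and -8.17 on the untreated arrays and -4.32, -2.96 and -4.15 on the treated arrays. The groups lay far apart, and no untreated array read the probe well above background. The change was 4.24 ± 0.50 (SE, adjusted p = 0.00608), and the treated signal was at least 4.64-fold higher. For this bound, each untreated array stood at its own lowest signal still called well above background.

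Rhag encodes the Rhesus-associated glycoprotein, an ammonium transporter of the red blood cell membrane. Its level was -7.83 and -8.06 on the untreated arrays and -4.61, -3.16 and -2.89 on the treated arrays. Here too the groups did not overlap, and the untreated arrays were not well above background. The change was 4.39 ± 0.63 (SE, adjusted p = 0.0388), at least 5.54-fold. A second Rhag probe read -7.91 and -6.77 on the untreated and -7.36, -8.48 and -6.70 on the treated arrays, and none of these 5 values was well above background.

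The call of both genes was lost when either untreated array was left out, with changes of 4.36 and 4.11 for LOC291521 (adjusted p = 0.191 and 0.385) and 4.51 and 4.28 for Rhag (adjusted p = 0.573 and 0.987). On the shared slide alone the changes were 4.41 for LOC291521 (adjusted p = 0.258) and 4.06 for Rhag (adjusted p = 0.357), and with slide as a fixed block the adjusted p were 0.0452 and 0.419. Over 23 alternatives for each gene the adjusted p ran from 3.96e-05 to 1.00 for LOC291521 and from 0.000507 to 1.00 for Rhag.

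The probes of the called genes are printed below as 60-base sequences, 5′ to 3′, as the array files give them, because much of what follows turns on how alike the spindlin probes are. Capitals in the first line mark the longest run that LOC291521 shares with the probe of LOC291510, and in the next 3 lines the run shared with LOC291521. Spin1, the family member with an assigned symbol on chromosome 17, shares no run over 5 bases with LOC291521. It shares longer runs with LOC291510 and LOC301891, which are not marked. Spin1 and Rhag are in lower case.
LOC291521: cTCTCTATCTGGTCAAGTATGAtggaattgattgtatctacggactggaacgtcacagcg
LOC291510: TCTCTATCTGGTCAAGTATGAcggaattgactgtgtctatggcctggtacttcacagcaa
LOC291501: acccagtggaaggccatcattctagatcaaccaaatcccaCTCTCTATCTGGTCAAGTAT
LOC301891: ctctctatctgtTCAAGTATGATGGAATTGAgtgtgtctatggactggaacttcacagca
Spin1: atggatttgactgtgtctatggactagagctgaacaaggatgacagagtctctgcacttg
Rhag: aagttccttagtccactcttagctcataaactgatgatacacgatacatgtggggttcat

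Positions are on build rn3, as the files give them, on the minus strand unless stated. LOC291521 lies at chrUn:15913891-15913950, on sequence not placed on a chromosome. The probe of LOC291510 lies at chrUn:54270456-54270515 on the plus strand, that of LOC291501 at chrUn:69017162-69017220 and that of LOC301891 at chrUn:8589514-8589573. Spin1's probe lies at chr17:19959655-19959714. The Rhag probe spans 883 bases, chr9:15943788-15944670, for 60 bases of sequence. Copies of like sequence can share labelled RNA on such probes, so the level of a single spindlin copy is uncertain.

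Across the spindlin family, the treated arrays read more probes above background than the untreated arrays. Of 55 probes with spindlin in their description, 25 and 22 were well above background on the untreated arrays and 51, 49 and 51 on the treated arrays. The median level over the 53 probes with a value on every array was -5.65 and -6.02 untreated and -3.53, -3.64 and -3.66 treated, so the groups did not overlap. With no filter on dim probes the change was above 0 for 50 of the 55, with a median of 1.63, against a median of 0.02 over all probes on the array.

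Of the 55 spindlin probes, 48 passed the filter, and 19 of these passed it only through the treated group, so they had to read higher there. The other 29 had a median change of 1.08 with 25 above 0, and the 7 that did not pass had a median of 1.09 with 6 above 0. In the test of single probes, 2 of the 48 passed the adjusted threshold. Over all kept probes 3 of 35065 passed (0.00856%), and these 2 are among the 3. The family was looked at because LOC291521 passed, and LOC291521 is 1 of the 2, so this count is no separate support.

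The spindlin probes that passed were those of LOC291521 and a probe of LOC301816. The latter read -7.77 and -8.03 untreated and -3.09, -3.62 and -3.74 treated, a change of 4.42 ± 0.55 (SE, limma adjusted p = 0.00671 over probes), at least 5.82-fold. A brighter probe of LOC301816 had a change of 2.12 ± 0.83 and stood for the gene in the test of genes, where it did not pass. Spindlin copies LOC302005 at 4.35 ± 0.70 and LOC301966 at 3.85 ± 0.64 lay nearest to the threshold among the rest (adjusted p = 0.0818 and 0.0960 over probes).

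Where a spindlin probe was already well above background on all 5 arrays, the difference was smaller. These 21 probes had a median change of 0.70 with 17 above 0. Of them, 10 had non-overlapping groups upward and 1 downward, against 4603 and 3746 of all 32577 probes well above background on all 5 arrays. None of the 21 passed the adjusted threshold, and 4 were higher at an unadjusted p under 0.05, against 269 of the 32577. The highest of the 21 was LOC298817, at -4.42 and -4.38 untreated and -3.56, -1.54 and -1.87 treated. LOC682571, on chromosome 2, was the one with every treated array below both untreated arrays, at 1.82 and 2.17 untreated and 1.46, 1.50 and 1.66 treated.

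Of the 21 spindlin probes well above background on all 5 arrays, the 14 on unplaced sequence had a median change of 0.89 and the 7 on chromosomes 0.65, a difference that was not tested. Over all kept probes the medians were 2.01 for 40 and 0.70 for 8, but 21 of the 40 were well above background on no untreated array, against 1 of the 8. On chromosomes, Spin1 had a change of 0.65 ± 0.53 and Spin2a, on the X chromosome, of 0.75 ± 0.56. Another 452 probes on unplaced sequence, outside the family, had a median of 0.25. The 553 kept probes of olfactory receptors, a large gene family, had a median of 0.21 (0.12 for those well above background on all 5 arrays), against 0.02 for all kept probes. With the array median in place of the 75th percentile these values were 0.07 for olfactory receptors and -0.12 for all.

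**Figure D1:**
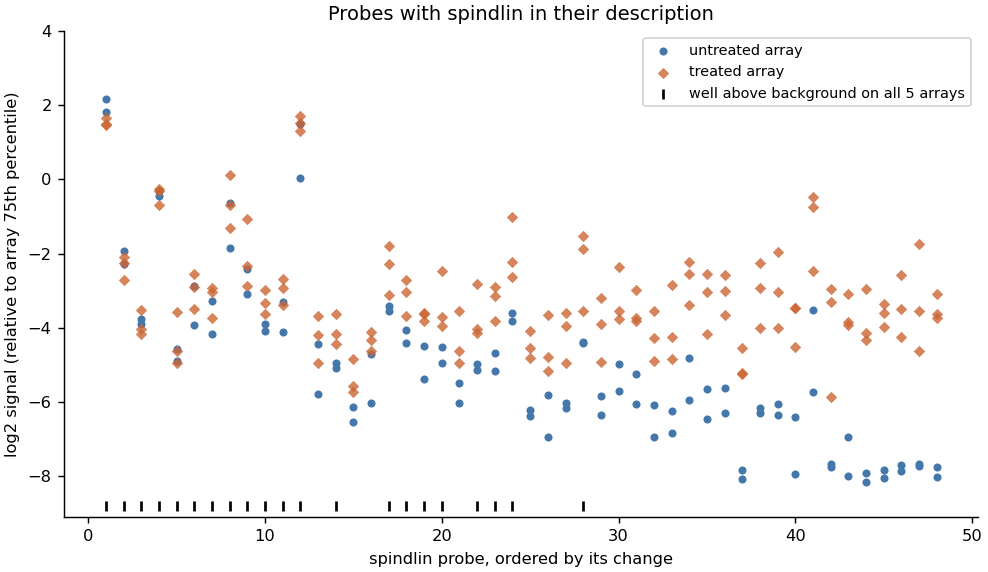
Log2 signal of the 48 kept spindlin probes (y axis) on the 2 untreated (circles) and 3 treated arrays (diamonds), ordered along the x axis by change, with ticks under the 21 probes well above background on all 5 arrays. On the right the untreated values lie far below the treated values, down to -8.17 for LOC291521.

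Probes assigned to a single spindlin copy did not read alike. LOC367632 has 3 kept probes on unplaced sequence, of which probe b overlaps probes a and c, printed here because their changes differ. In probes a and b capitals mark the longest run that they share, 30 bases, and in probe c the 23 bases it shares with probe b. The base after the run differs between probes a and b, so they cannot both match a single sequence exactly. The part of this in their readings was not tested.
LOC367632 probe a: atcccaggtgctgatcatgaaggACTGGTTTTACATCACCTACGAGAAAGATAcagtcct
LOC367632 probe b: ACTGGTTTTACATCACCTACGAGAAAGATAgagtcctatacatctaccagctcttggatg
LOC367632 probe c: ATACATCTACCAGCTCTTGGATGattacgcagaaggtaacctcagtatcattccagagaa

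Probe a of LOC367632, at chrUn:28949287-28949346, read -1.93 and -2.27 untreated and -2.25, -2.70 and -2.10 treated, with overlapping groups. Probe b, at chrUn:28949264-28949323, read -7.84 and -8.08 untreated and -5.21, -5.24 and -4.56 treated, a change of 2.95 ± 0.80. Probe c, at chrUn:28949227-28949286, read -6.04 and -6.15 untreated and -3.96, -4.94 and -3.61 treated, a change of 1.93 ± 0.93. Against the probe of LOC291521, 39 kept spindlin probes shared no run of 12 bases and had a median change of 1.38, and 6 with a longest run of 12 to 19 bases had a median of 3.19. The 2 that shared 20 or more had 1.08, at LOC291501, and 4.30, at LOC291510.

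LOC291521 was not well above background in any other treated group, and Rhag was on 1 array. LOC291521 ran from -8.24 to -7.92 at 1/5 for 6 h, from -7.92 to -6.59 at 1/25 for 6 h and from -8.57 to -8.45 at concentration 1 for 24 h. Its level at concentration 1 for 6 h was higher than at 1/5 by 4.23 ± 0.45, than at 1/25 by 3.38 ± 0.45 and than at 24 h by 4.70 ± 0.45 (SE, limma adjusted p = 0.0013, 0.0133 and 0.000287). Against groups below background these are measured differences only, and the signal was at least 5.02-fold, 4.98-fold and 6.24-fold higher in the same order. With normexp background correction the difference from 1/5 was 2.42 and lost its call. The untreated arrays play no part in these differences, but both called genes were picked for their high level on the same 3 treated arrays. The differences are therefore not independent of the calls. The arrays at 1/5 for 6 h shared a slide with treated array 3 only, so slide is partly confounded with that difference. The groups at 1/25 for 6 h and at 24 h were on other slides and another scan day than concentration 1 for 6 h. For these groups, group, slide and scan day cannot be told apart.

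Rhag ran from -7.81 to -5.32 at 1/5 for 6 h, where 1 of 3 arrays was well above background. At 1/25 for 6 h it ran from -8.20 to -7.79 and at concentration 1 for 24 h from -8.49 to -8.39. The level at concentration 1 for 6 h exceeded that at 1/25 by 4.49 ± 0.57 and that at 24 h by 4.88 ± 0.57 (SE, limma adjusted p = 0.0133 and 0.00215), at least 5.95-fold and 7.45-fold, with the same confounding of slide and scan day. Against 1/5 the difference of 3.11 ± 0.57 did not pass (adjusted p = 0.115). Leaving out treated array 2 or 3 ended the calls against 1/25 (adjusted p = 0.0903 and 0.0569 for LOC291521, 0.0903 and 0.0641 for Rhag). Over 29 alternatives each these adjusted p ran from 0.000218 to 0.569 for LOC291521 and from 8.36e-05 to 1.00 for Rhag.

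Over the spindlin probes, the median level of an array ran from -5.50 to -4.28 at 1/5 for 6 h, from -6.97 to -4.90 at 1/25 for 6 h and from -5.91 to -5.78 at concentration 1 for 24 h. All lay below the lowest treated array at concentration 1 for 6 h, -3.66. At 1/5 for 6 h 27 to 46 of the 55 probes were well above background, and at concentration 1 for 24 h 29 to 33.

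**Figure D2:**
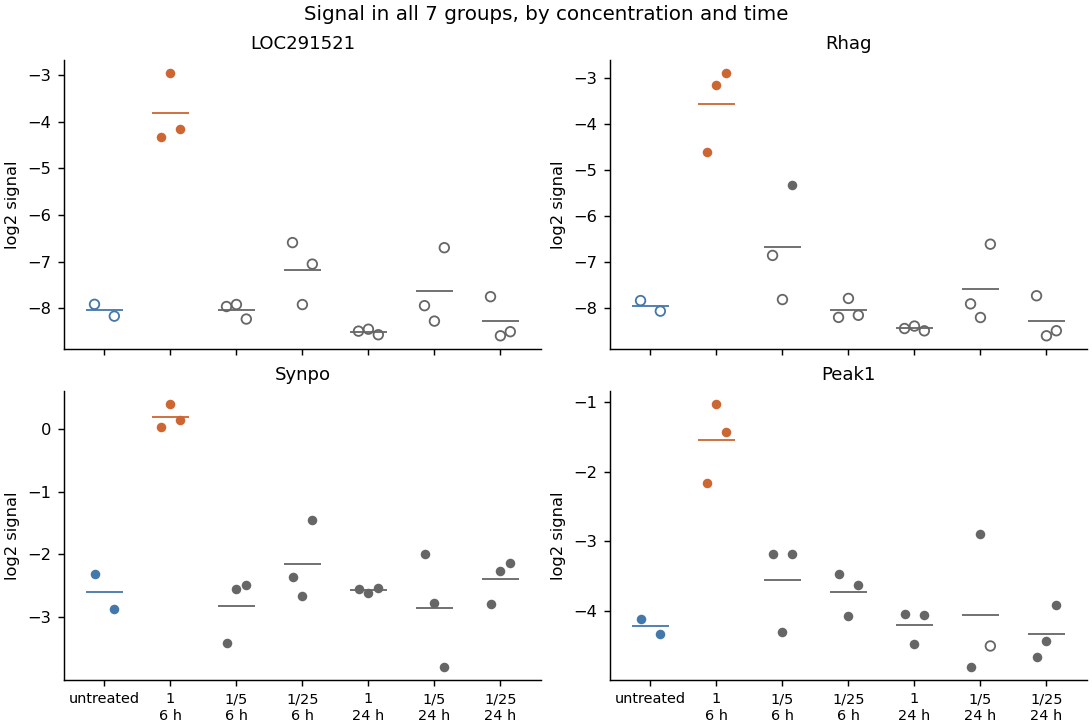
Log2 signal (y axis) of LOC291521, Rhag, Synpo and Peak1 on each array of the 7 groups (x axis: reference concentration and hours), with filled points well above background, open points not, and lines at group means. The 3 arrays of concentration 1 for 6 h stand above every other array in all 4 panels.

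Beyond the 2 calls, 394 genes were higher (1.29%) and 59 lower (0.193%) at an unadjusted p under 0.05. All treated arrays lay above both untreated arrays for 4298 genes (14.1%) and below for 3538 (11.6%). The change was at least 1 upward in 1163 genes (3.81%) and downward in 174 (0.57%), and over 2 in 175 (0.574%) and 10 (0.0328%), while 52% of genes had a change above 0. Of changes of at least 1, 87% were upward. That share depended on the scaling: it was 74.9% with the array median in place of the 75th percentile, which moved the median of all genes from 0.01 to -0.13, and 63.8% with quantile normalization.

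The changes also followed signal and probe composition. In 5 equal bins of genes by mean signal, from the dimmest to the brightest, the median change was 0.21, 0.13, 0.04, -0.04 and -0.05. With quantile normalization these medians lay between -0.06 and 0.00. Genes whose probe had at most 35% G and C had a median of -0.10 and those with 50 to 55% a median of 0.13, and quantile normalization left -0.15 and 0.09. Among the 175 genes with a change over 2, 83 had no untreated array well above background, against 531 of all 30504 genes. Among the 175, 17 were spindlin copies and 16 olfactory receptor genes, against 43 and 551 of all genes.

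**Figure D3:**
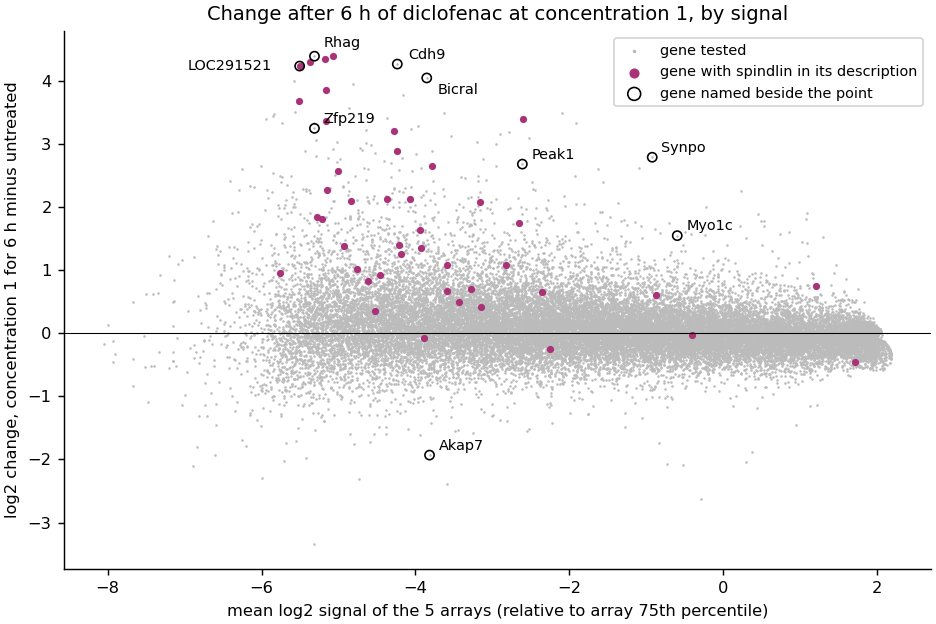
Log2 change of 30504 genes (y axis) against the mean log2 signal of the 5 arrays (x axis), with spindlin genes in purple and 9 genes named. Rhag, LOC291521 and most large changes sit at low signal on the left, and Synpo and Myo1c stand out among brighter genes.

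Of the 28430 genes well above background on all 5 arrays, 0 passed the adjusted threshold in limma, 223 were higher (0.784%) and 41 lower (0.144%) at an unadjusted p under 0.05, and the arrays lay apart upward for 13.3% and downward for 12%. Among them, 326 with an assigned symbol had a change of at least 1 and every treated array above both untreated arrays. None of them passed the adjusted threshold, and values follow for genes among the 12 of smallest p. Synpo, which encodes the actin-associated protein synaptopodin, read -2.32 and -2.87 untreated and 0.04, 0.40 and 0.15 treated. The change was 2.79 ± 0.48 (SE, limma adjusted p = 0.105), and adjusted p ran from 0.00025 to 1.00 over 24 alternatives, passing in 3. Its changes against the same untreated arrays were -0.22 at 1/5 and 0.44 at 1/25 for 6 h and 0.03 at concentration 1 for 24 h. These comparisons share their controls.

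Peak1 and Myo1c, also among the 12, encode proteins that act at the actin cytoskeleton. Peak1, a pseudokinase of the actin cytoskeleton, read -4.11 and -4.33 untreated and -2.16, -1.02 and -1.43 treated, a change of 2.68 ± 0.52. Myo1c, an unconventional myosin of membrane traffic, read -1.60 and -1.45 untreated and -0.10, 0.39 and -0.22 treated, a change of 1.55 ± 0.35.

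Other genes among the 12 had various roles. Gpd2, the mitochondrial glycerol phosphate dehydrogenase, read -4.03 and -3.82 untreated and -2.59, -1.29 and -0.70 treated, a change of 2.40 ± 0.57. Eogt, a glycosyltransferase of the endoplasmic reticulum, had a change of 1.50 ± 0.44. Cry2, a repressor of the circadian clock, read -4.85 and -3.60 untreated and -2.13, -2.64 and -1.53 treated, a change of 2.13 ± 0.66. Spo11, which cuts DNA in meiosis, had a change of 1.74 ± 0.50, Tmem255a 1.83 ± 0.58, Gatd1 2.02 ± 0.67 and Inhca 1.23 ± 0.36. The other 2 kept probes of Inhca stood at 0.03 ± 0.88 and 0.18 ± 0.43.

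Dnajc6 encodes auxilin, which helps strip clathrin from vesicles. Its brightest probe read -4.89 and -4.50 untreated and -1.53, -1.53 and -1.45 treated, a change of 3.19 ± 0.86. The other 3 kept probes had changes of -0.40, 0.04 and 0.81, so only 1 of its 4 probes moved by more than 1. Against the same untreated arrays, the brightest probe had a change of 3.08 at 1/5 for 6 h, 0.67 at 1/25 for 6 h and 0.53 at 24 h.

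On the downward side 33 genes met the same rule, and again none passed the adjusted threshold. Nbn, of the complex that senses DNA breaks, read 0.07 and -0.58 untreated and -1.33, -1.73 and -1.72 treated, a change of -1.34 ± 0.45. Traf6, an adaptor of NF-kB signalling, read -3.18 and -2.69 untreated and -4.52, -4.25 and -4.32 treated, a change of -1.43 ± 0.50. Foxa2, a forkhead transcription factor, read -0.21 and 0.13 untreated and -0.90, -1.16 and -1.16 treated, a change of -1.04 ± 0.39.

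Akap7, which anchors protein kinase A near calcium pumps and channels, read -1.48 and -3.84 untreated and -4.58, -4.62 and -4.56 treated, so the untreated arrays spread far more than the treated. Its change was -1.93 ± 0.62, between -3.11 and -0.39 over the alternatives, and its other kept probe had 1.14 ± 0.81. Probes also disagreed in sign for Ank1, which encodes ankyrin of the membrane skeleton, at -1.29 ± 0.57 and 0.66 ± 0.63, and for Dhx9, an RNA helicase, at -1.05 ± 0.47 and 0.32 ± 0.66. Adam5 had -1.01 ± 0.37, Eps8l1 -1.55 ± 0.58, Brinp2 -1.02 ± 0.40, Plb1 -1.15 ± 0.47, Phactr2 -1.60 ± 0.70 and Hace1 -1.40 ± 0.61. The untreated arrays of Hace1 read -2.79 and -1.15, and its change was -2.22 without the first and -0.57 without the second.

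The other treated groups are set against the same untreated arrays, so their changes are given beside these without comparison. Traf6 had changes of -1.17 at 1/5 and -1.39 at 1/25 for 6 h and -1.26 at concentration 1 for 24 h. Hace1, a ubiquitin ligase, had -1.64, -1.48 and -1.54 in the same order, and Phactr2 -1.54, -1.43 and -1.70. Among the higher genes, Peak1 had 0.66, 0.50 and 0.02, Gpd2 0.65, -0.13 and 0.05 and Cry2 -0.35, -0.70 and -0.62.

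Of 13162 genes with a symbol, a further 72 were well above background on all 3 treated arrays but on no untreated array. They also had a change of at least 1 and no overlap. Such genes could pass the filter on dim probes through the treated group alone, so their high treated signal is part of how they were picked. Bicral, a subunit of a chromatin remodelling complex, read -6.31 and -6.25 untreated and -2.21, -2.14 and -2.34 treated. Its change of 4.05 ± 0.75 was at least 13.9-fold (limma adjusted p = 0.234). Cdh9, a cadherin, read -5.57 and -8.02 untreated and -3.03, -2.25 and -2.30 treated, at least 9.97-fold. Zfp219, a zinc finger protein gene, was at least 4.03-fold higher, Nploc4, a cofactor of ubiquitin-dependent extraction, at least 6.93-fold, Spag16, a sperm tail gene, at least 6.05-fold and the olfactory receptor gene Or1e1c at least 2.51-fold. With no filter on dim probes another Spag16 probe stood for the gene, with a change of 0.18. None of the 6 passed the adjusted threshold. The 2 genes with the reverse pattern were Pabpc1l2a, at least 3.37-fold lower, and P2ry6, a nucleotide receptor gene, at least 1.80-fold lower.

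**Figure D4:**
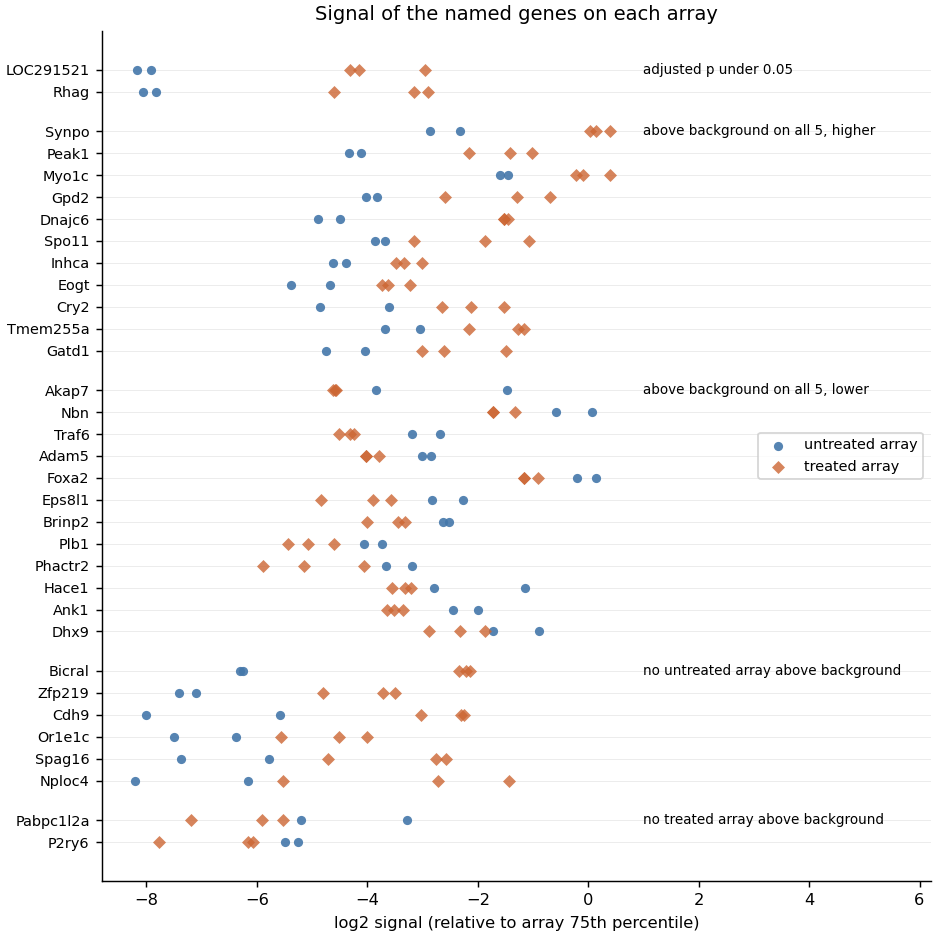
Log2 signal (x axis) of genes named by rule (rows) on the 2 untreated (circles) and 3 treated arrays (diamonds), grouped by the rule that named it. Every row keeps the groups apart, and the treated spread is widest for Nploc4, from -5.54 to -1.44.

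There were 60 genes with several kept probes whose brightest probe had a change of at least 1 with non-overlapping groups upward, and their median was 1.25. Their other 72 probes had a median of 0.36, and 18 had a change of at least 1. Over all 3708 genes with several kept probes, the 4561 other probes had a median of 0.13, and 316 had a change of at least 1. For the 6 such genes downward the median was -1.07, and their 6 other probes had a median of 0.47 with none at -1 or below. The brightest probes were picked here for their change, and the others were not.

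Prostanoid genes, the pathway that diclofenac targets, showed no change past the threshold. Of 23 listed genes 16 were measured, and their median change was -0.02 against 0.01 over all genes. None had an unadjusted p under 0.05 in the fit of all 20 arrays, whose spread enters each SE. Ptgs2, the inducible cyclooxygenase, read -1.67 and -1.77 untreated and -2.40, -2.25 and -2.38 treated, with every treated array lower and a change of -0.62 ± 0.68. A second Ptgs2 probe was dim and did not pass the filter. Ptgs1, the constitutive cyclooxygenase, read 1.79 and 1.48 untreated and 1.58, 1.49 and 1.44 treated, with overlapping groups and a change of -0.13 ± 0.63.

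Upstream of the cyclooxygenases, Pla2g4a, the phospholipase that releases arachidonic acid, had a change of -0.11 ± 0.65. Among the terminal synthases, Ptgis, for prostacyclin, stood at -0.15 ± 0.78, Ptges at -0.13 ± 0.35, Ptges2 at 0.09 ± 0.31 and Ptgds, for prostaglandin D, at -0.01 ± 0.41. Their groups overlapped. Ptgr1, a reductase that inactivates prostaglandins, had 0.11 ± 0.52, and Abcc4, which exports them, 0.53 ± 0.72.

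The receptors spread more widely. Ptgfr, the prostaglandin F receptor, read -0.89 and -0.97 untreated and -1.81, -1.75 and -1.66 treated, with no overlap and a change of -0.81 ± 0.45. Ptger1, a prostaglandin E receptor, read -5.09 and -4.33 untreated and -3.65, -3.20 and -4.14 treated, a change of 1.05 ± 0.91. The other receptors lay near 0, with Ptger2 at -0.01 ± 0.68, Ptgdr at -0.02 ± 0.49, Ptgdr2 at 0.01 ± 0.44, Ptgir at -0.04 ± 0.95 and Tbxa2r, the thromboxane receptor, at 0.21 ± 1.01.

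The label of the cells was checked against marker lists. Of 24 cardiomyocyte markers 23 were measured, and all 23 were well above background on all 5 arrays. Their mean level was 0.36 and 0.42 untreated and 0.35, 0.37 and 0.30 treated. Fibroblast markers (13 of 14 measured) averaged -0.55 and -0.69 untreated and -0.51, -0.52 and -0.62 treated. Of the measured markers of other cells, 12 of 13 endothelial, 9 of 9 smooth muscle and pericyte and 11 of 14 leukocyte markers were well above background on all 5 arrays. In such bulk samples, fewer cells of a type and less RNA per cell cannot be told apart.

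Cardiomyocyte markers had a median change of -0.11, with 4 of 23 apart upward and 2 downward, against 14.1% and 11.6% of all genes. Tbx5, a cardiac transcription factor, had the highest change at 0.82 ± 0.54 and Actn2, of the sarcomere's Z-disc, the next at 0.72 ± 0.93. Myh6, the alpha myosin heavy chain, at -0.68 ± 0.93 and Ttn, titin, at -0.41 ± 1.39 were lowest. Calcium cycling and ion channel genes had a median of 0.00 over 26 members, from Slc8a1, the sodium-calcium exchanger, at -0.43 ± 0.74 and Gja5 at -0.41 ± 0.61 to the potassium channel genes Kcnq1 at 0.65 ± 0.97 and Kcna5 at 0.71 ± 0.55.

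Markers of other heart cells had medians near that of all genes. Fibroblast markers had a median of 0.03, with the matrix genes Dcn at 0.55 ± 0.54 and Col5a1 at 0.50 ± 0.60 highest and Mfap5 at -0.35 ± 0.59 and Pdgfra at -0.30 ± 0.49 lowest. Endothelial markers had a median of 0.16, with Tek at 0.90 ± 0.66 and Cdh5 at 0.86 ± 0.52 highest and Vwf at -0.77 ± 0.72 and Thbd at -0.50 ± 0.38 lowest. Smooth muscle and pericyte markers had -0.06, from Cspg4 at -0.35 ± 0.38 and Mcam at -0.31 ± 0.42 to Pdgfrb at 0.69 ± 0.64 and Notch3 at 0.69 ± 0.55. Leukocyte markers had -0.04, with Cd3e at 1.35 ± 1.08 and Aif1 at 0.74 ± 0.66 highest and Csf1r at -0.47 ± 0.81 and Mrc1 at -0.27 ± 0.54 lowest. None of these genes, nor any other marker in the 4 lists, had an unadjusted p under 0.05.

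Mesothelial and epithelial markers had a median of -0.06. Krt7, a keratin, read -0.89 and -2.36 untreated and -2.93, -2.52 and -2.75 treated, a change of -1.11 ± 0.73, next to Krt18 at -0.42 ± 0.39. Cdh1 at 0.87 ± 1.35 and Upk3b at 0.51 ± 0.59 were highest. Schwann and neural markers had a median of 0.23 over 8 members, with Sox10 at -0.22 ± 0.43 and Th at 0.61 ± 0.61.

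Erythroid markers were set beside Rhag. Of 30 listed genes 21 were measured, 18 of them well above background on all 5 arrays, and 11 had a change above 0. Their mean level was -2.68 and -2.87 untreated and -2.76, -2.64 and -2.39 treated, and their median change was 0.03. Slc4a1, the anion exchanger of red cells, had 0.91 ± 0.46, the erythroid transcription factor genes Gata1 and Klf1 had -0.02 ± 0.47 and -0.11 ± 0.38, and Alas2, of haem synthesis, had 0.45 ± 0.45. Ahsp, the alpha globin chaperone, read -0.30 and -0.50 untreated and -0.98, -1.07 and -1.16 treated. Rhd, a relative of Rhag, had -0.87 ± 0.63, and Ank1, lower at an unadjusted p under 0.05, is in this list too. None of the listed globin symbols was among the genes measured. The part of red cell content in the Rhag result was not tested.

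Stress response lists had medians near 0. Integrated stress and ER stress genes had a median of -0.02 over 23 members. Ddit4, an inhibitor of mTOR signalling, read -2.65 and -2.67 untreated and -1.91, -1.71 and -1.57 treated, a change of 0.93 ± 0.37, with an unadjusted p under 0.05, next to Sesn2 at 0.63 ± 0.64. Slc7a11, the cystine transporter, at -0.49 ± 0.59 and Hspa5, the ER chaperone BiP, at -0.49 ± 0.61 were lowest. NRF2 target genes had a median of 0.02, from Gclc, of glutathione synthesis, at -0.79 ± 0.88 and Slc7a11 to Srxn1 at 0.67 ± 0.87 and the quinone reductase Nqo1 at 0.83 ± 1.14. Heat shock genes had -0.10, with Hspa1l at -0.85 ± 0.46 and Hsp90ab1 at -0.37 ± 0.45 lowest and Hspb7 at 0.54 ± 0.57 and Hsf1 at 0.69 ± 0.55 highest.

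Growth and death genes followed. Immediate early genes had a median of -0.02, with Fosb at 0.76 ± 0.51 and Junb, not well above background on either untreated array, at 1.01 ± 0.56 highest and Fosl1 at -0.41 ± 0.54 and Zfp36 at -0.33 ± 0.89 lowest. P53 target genes had a median of -0.01, with Perp, of cell junctions and apoptosis, at -5.61 and -6.15 untreated and -3.75, -4.11 and -3.48 treated. Its untreated arrays were not well above background, and the treated signal was at least 4.24-fold higher, with an unadjusted p under 0.05. Xpc, of DNA repair, had 1.05 ± 0.63, and Sesn1 at -0.77 ± 1.01 and Fas at -0.42 ± 0.50 were lowest. Apoptosis regulators had a median of 0.04, from Bcl2l11, which encodes Bim, at -1.09 ± 0.68 and Cflar at -0.39 ± 0.48 to Apaf1 at 0.61 ± 0.73 and Xiap at 0.75 ± 1.04. Cell cycle genes had a median of 0.12 with 22 of 32 above 0, 8 apart upward and 3 downward, against 52%, 14.1% and 11.6% of all genes. With the array median in place of the 75th percentile it was -0.02, and -0.13 over all genes. They ran from Birc5 at -0.26 ± 0.37 and Ccnb1 at -0.25 ± 0.38 to Aurkb at 0.79 ± 0.46 and Cdc6 at 1.11 ± 0.90.

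Inflammatory genes had no member with an unadjusted p under 0.05. NF-kB and cytokine genes had a median of -0.06 over 17 members, and 5 lay apart downward and none upward, against 11.6% and 14.1% of all genes. The chemokine Ccl20 read -3.11 and -2.53 untreated and -3.81, -4.00 and -4.15 treated, a change of -1.17 ± 0.81. Ccl2, which draws monocytes, read -3.75 and -3.07 untreated and -3.95, -4.67 and -4.90 treated, a change of -1.09 ± 0.91. Nfkb2 at 0.47 ± 0.90 and Sele at 0.43 ± 1.08 were highest. Interferon-stimulated genes had a median of 0.01, from Ifit1 at -0.61 ± 0.46 and Oas1a at -0.56 ± 0.40 to Tap1 at 0.86 ± 0.88 and Irf7 at 1.53 ± 0.89.

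Of the metabolic lists, cholesterol synthesis genes had a median of 0.02 over 25 measured members, with 13 above 0 and 12 below. Their arrays lay apart upward for 5 and downward for 1, against 14.1% and 11.6% of all genes. Idi1, which makes a building block of sterols, had -0.32 ± 0.70.

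Fatty acid oxidation and PPAR target genes had a median of 0.07, from Fabp3, the heart fatty acid binding protein, at -0.52 ± 0.67 and Acot2 at -0.33 ± 0.44 to Cd36 at 0.43 ± 0.47 and Ppard at 1.34 ± 0.77. Oxidative phosphorylation genes had -0.06, with 8 of 25 above 0, from Cycs at -0.37 ± 0.48 and Sdhb at -0.28 ± 0.47 to Atp5f1a at 0.29 ± 1.20 and Cox8b at 0.44 ± 0.42. Hypoxia and glycolysis genes had -0.04. Egln3, a prolyl hydroxylase of the oxygen response, read 0.51 and 0.47 untreated and -0.07, -0.38 and -0.27 treated, a change of -0.73 ± 0.34, with an unadjusted p under 0.05, next to Bnip3 at -0.63 ± 0.75. Hk2 at 0.75 ± 0.44 and Pfkfb3 at 0.92 ± 0.58, both of glycolysis, were highest.

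Drug metabolism and transport genes had a median of 0.14 over 23 members, with 16 above 0, against 52% of all genes. Cyp2e1 at 1.30 ± 0.68 and Slc22a5, the carnitine transporter, at 1.06 ± 0.68 were highest, and Cyp1a1, a target of the aryl hydrocarbon receptor, at -0.74 ± 1.30 and Cyp4b1 at -0.35 ± 0.33 were lowest. Circadian clock genes had a median of 0.16, with 6 of 17 apart upward and 3 downward, against 14.1% and 11.6% of all genes. With the array median in place of the 75th percentile the median of these clock genes was 0.02, and -0.13 over all genes. Besides Cry2, Per1 read -3.03 and -2.67 untreated and -1.76, -2.29 and -1.37 treated, a change of 1.04 ± 0.42, with an unadjusted p under 0.05. Nr1d2, a nuclear receptor of the clock, had 1.12 ± 1.38, and Per2 at -0.65 ± 0.68 and Cry1 at -0.36 ± 0.58 were lowest.

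**Figure D5:**
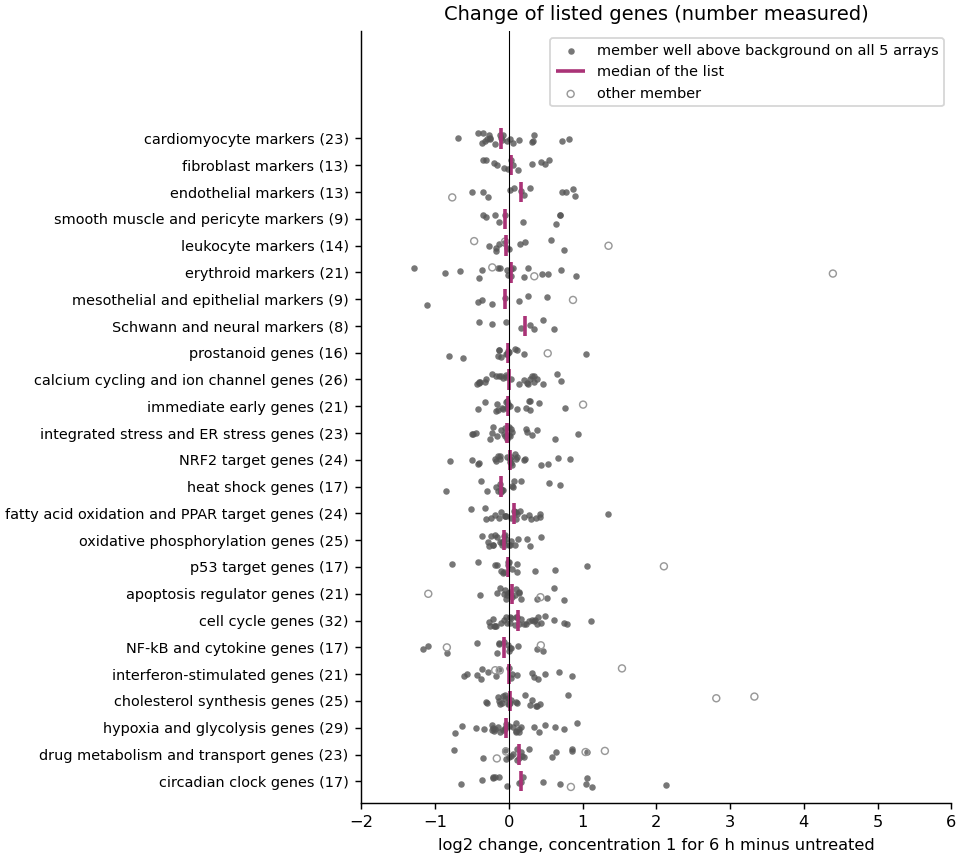
Log2 change (x axis) of every measured member of 25 gene lists (rows), with filled points well above background on all 5 arrays, open points not, and a bar at each list's median. List medians lie between -0.11 and 0.23, and the farthest point on the right is Rhag, at 4.39.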

How the data were processed

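Scanner files gave intensity: background-subtracted processed signal from Agilent Feature Extraction 9.5.3.1, with probe positions on build rn3, per the file headers. The deposited series table has values that behave as a ratio of signal over the array median to the untreated mean: rebuilt that way they correlated with r of 0.998 to 0.999 on the 5 arrays. It served as an alternative.

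Non-control spots were log2-transformed and the array's 75th percentile subtracted. Outlier spots were left out (219 to 271 of 43379 on each array) and saturated spots kept. Probes had to be well above background on all arrays of some group, and each gene was represented by its brightest such probe. Symbols came from RefSeq by accession (10735), symbol (5571) or synonym (3729), and 20977 kept the file's name. The number of arrays limits the precision.

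All 20 arrays, as 7 group means, were fitted with limma 3.58.1 (R 4.3.3), two-sided, with Benjamini-Hochberg adjustment over all genes and a threshold of 0.05; this step was tested on simulated data. Python 3.11.15, pandas 2.3.3, numpy 2.4.6 and matplotlib 3.10.9 read the files and drew figures. The 25 gene lists got counts and medians, with no test. Named genes were those called and the family of a called gene; the 12 higher and 12 lower of smallest p among genes well above background on all 5 arrays, with groups apart and a change of at least 1; up to 6 each way with 1 group not above background; all prostanoid genes; and the 2 highest and 2 lowest of each other list. Other listed genes were named after their values were seen. Some genes that this rule names are not reported here. Members and lists were chosen with earlier results of these data known. Alternatives changed scaling, background correction, filter, probes, arrays, slide, replicate block, moderation and weights.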

Additional observations from a re-analysis of the deposited data

Results flagged for a closer look

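The level of LOC291521 at concentration 1 for 6 h differed from 3 other treated groups by a test of the difference itself. The difference was 4.23 against 1/5 for 6 h, 3.38 against 1/25 for 6 h and 4.70 against concentration 1 for 24 h. The 3 arrays lay above every array of each of those groups. The arrays at 1/5 for 6 h shared a slide with treated array 3 only, so slide is partly confounded with that difference. The groups at 1/25 and at 24 h shared neither slide nor scan day with concentration 1 for 6 h. Group and batch cannot be told apart in the differences from these groups.

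For Rhag the difference was 4.49 against 1/25 for 6 h and 4.88 against concentration 1 for 24 h, again with all 3 arrays above every array of the other group and with the same confounding. No array of these groups read either probe well above background, so the differences are between a measured and an unmeasured level. Both genes were picked for their high level on the same 3 arrays at concentration 1 for 6 h. These tests are therefore not independent of the calls.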

How the results depend on the processing

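The count of 2 called genes was 1 with the array median, the deposited table, no filter on dim probes or the replicate block, 1 with quantile normalization (Synpo, neither of the 2), and 4 with the 5 compared arrays alone (neither called gene among them) or without the array of lowest signal. With the 5 compared arrays alone, 3016 genes had an unadjusted p under 0.05 (limma), against 453 in the fit of all 20 arrays. The count of called genes was 70 with array weights, 56 of them higher. It was 0 with normexp, with probes well above background on all 5 arrays, with 6 h and untreated arrays alone, on the shared slide and with an intensity trend (limma; 513, 269, 1155, 2176 and 398 genes at an unadjusted p under 0.05). Leaving out single arrays gave 0 to 4, with 0 without either untreated array (317 and 267 unadjusted). Deviations of same-numbered samples from their group means had correlations of -0.20 and 0.02. With 2 untreated arrays these deviations mirror each other, so the correlations cannot decide whether the numbers pair samples. With the replicate block LOC291521 kept its call and Rhag did not.

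With no filter another Rhag probe stood for the gene: its change was -0.17, and its differences were -0.19 from 1/5, -1.38 from 1/25 and -0.22 from 24 h. The difference of LOC291521 from 1/5 lost its call with quantile normalization (3.69), normexp (2.42) and slide as a fixed block (3.89). Both differences from 1/25 lost it with the array median (3.09; Rhag 4.20), quantile normalization (2.79; 3.55), normexp (2.30; 2.87), the deposited table (3.09; 4.20), 6 h and untreated arrays alone and an intensity trend (3.38; 4.49 in both). Rhag against 1/5 passed with array weights (3.23) and without array 3 at 1/5 for 6 h (3.78). Leaving out single arrays, LOC291521 against 1/25 ran from 2.95 to 3.68, and Rhag from 2.53 to 3.78 against 1/5 and from 4.16 to 5.02 against 1/25. Slide as a fixed block could not be fitted for 1/25 and 24 h and was not run there. Listed genes at an unadjusted p under 0.05 numbered 14 with quantile normalization, 5 among probes well above background on all 5 arrays, 43 on the shared slide and 1 to 10 without single arrays. Of 806 values of the 34 named genes, 765 kept direction and side of the threshold. Most of the 34 were not called, so staying on that side was nearly fixed for them. The 2 called genes, LOC291521 and Rhag, kept their calls in 15 and 8 of 23 alternatives each. The cause of these shifts was not tested. Alternatives on other arrays were chosen after seeing the data. Signals near background limit both called genes.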
